A study of Mus musculus with 2 samples.

Results

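Lipid uptake, storage and efflux genes are described here in 2 libraries of single cells sorted from mouse bone marrow culture. The set holds 10 of the 47729 genes listed in the files, matched by symbol: Lpl, Cd36, Msr1, Fabp4, Fabp5, Plin2, Abca1, Abcg1, Apoe and Pparg. Both groups came from femoral marrow labelled C57BL/6NCrljOri, H-2b, cultured for 5 days with GM-CSF at 40 ng/mL. The first group, called here the library without coculture, was sorted as CD11bhiLy6Chi cells from marrow grown alone. The second, called the coculture library, was sorted as CD11bmidLy6Cmid cells from marrow that shared medium with human mesenchymal stem/stromal cells (MSCs). These sat in 0.4 µm transwell inserts at 1 MSC to 5 marrow cells after 24 h alone. RPMI1640 is named for the marrow culture and DMEM for the coculture. Coculture, sorting gate, medium and library therefore cannot be told apart. There is 1 library per group, so no difference below has a replicate check or a test, and all intervals are 95% intervals for counting error only.

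Myeloid cells take up lipid in several ways. Lipoprotein lipase (Lpl) releases fatty acids from triglyceride-rich lipoproteins at the cell surface, Cd36 takes up long-chain fatty acids and oxidised lipoproteins, and Msr1 (scavenger receptor A) takes up modified lipoproteins. Fatty acid-binding proteins such as Fabp4 and Fabp5 carry the fatty acids inside the cell, and perilipin 2 (Plin2) coats the droplets in which neutral lipid is stored. Cholesterol leaves through the transporters Abca1 and Abcg1 to acceptors such as apolipoprotein A-I and high-density lipoprotein, and apolipoprotein E (Apoe) is secreted with lipid. The nuclear receptors PPARγ (Pparg) and LXR, each paired with RXR, are known regulators of many of these genes in macrophages.

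Barcodes counted as cells when 500 or more genes were detected and mitochondrial genes held 10% or less of the UMIs (unique molecular identifiers, which count captured RNA molecules). This left 1817 of 2180 barcodes without coculture and 3005 of 3134 in coculture, with 27784963 and 29089241 UMIs and medians of 7016 and 6031 UMIs per cell. The libraries shared 2 kept barcodes. Levels are a gene's UMIs summed over cells and scaled to the total (CPM, per 1000000 UMIs). Clustering without the genes described here gave 18 clusters, named by marker genes. The library without coculture was 58.3% neutrophil-like (1060 cells), 31.5% macrophage-like (573 cells, all in cluster 0) and 8.15% unnamed cluster 1. In the coculture library macrophage-like cluster 0 held 0 cells, with an interval for its share that reached 0.123%. At the finer clustering resolution of 1.2 a separate cluster with 92 coculture cells (3.06%) was also named macrophage-like, and at the resolution used here all 92 lay in unnamed cluster 1. That library was 30.2% B lineage-like, 15.7% eosinophil-like, 14.7% neutrophil-like, 14.0% basophil or mast cell-like and 9.72% mature dendritic cell-like. Its neutrophil-like cells lay almost only in cluster 2, named from 8 neutrophil markers raised at least 2-fold, 1 of them among its leading genes. Csf1r, of the macrophage list, was 280 CPM there and Csf3r, of the neutrophil list, 132 CPM. These were 63.3 and 444 CPM in neutrophil-like cluster 4 and 366 and 62.0 CPM in cluster 0. S100a8 was 28103 CPM in cluster 2, 64939 CPM in cluster 4 and 5271 CPM in cluster 0. CD11b is the product of Itgam, whose level was 509 CPM in the coculture neutrophil-like cluster 2 but 3.03 CPM in B lineage-like cluster 11 of the same sorted library. The share of UMIs that a cell class holds differs between the libraries with its number of cells and its RNA per cell, which a sum over a library cannot separate.

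In GRCm38 the uptake genes lie on chromosome 8 (Lpl, 68880491 to 68907448, and Msr1, 39581685 to 39642673) and chromosome 5 (Cd36, 17781690 to 17888801). Fabp4 (10204088 to 10208576) and Fabp5 (10012548 to 10016607) both lie on chromosome 3. Plin2 (86648386 to 86670060) and Abca1 (53030787 to 53159895) lie on chromosome 4, Abcg1 (31057675 to 31117988) on 17, Apoe (19696109 to 19699188) on 7 and Pparg (115360951 to 115490399) on 6. All are protein-coding. The genes that overlap Abcg1 and Pparg on the annotation, Gm25447 and Gm44079, had 1 and 0 UMIs over both libraries.

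Over all kept cells, 7 of the 10 genes had a coculture level lower by 2-fold or more, 0 were higher by 2-fold or more and 3 lay between. Among the 8668 genes that reached 10 CPM in either library, 11.7% were at least 2-fold lower and 12.7% at least 2-fold higher. The median log2 ratio (coculture over without) was -2.15 for the 10 genes and 0.03 for all 8668. That all-gene median moved to -0.13 with TMM scaling, where 908 genes were higher and 1262 lower, against 1104 and 1010 without it. The 7 lower genes stayed 7 under that scaling. With each cell weighted alike, as the mean of the cells' own CPM, 4 were at least 2-fold lower and 1 higher, with 8 of the 10 reaching the minimum level.

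All 3 uptake genes were lower in the coculture library. Lpl had 962 CPM (950.0 to 973) without coculture and 12.6 CPM (11.4 to 14.0) with it, a log2 ratio of -6.25 (-6.40 to -6.10). An Lpl UMI was seen in 51.0% of cells without coculture and 4.63% in coculture. Cd36 stood at 20.3 CPM (18.7 to 22.1) and 2.99 CPM (2.40 to 3.69), a log2 ratio of -2.77. With cells weighted alike the Cd36 ratio was -1.26, from levels under the minimum. Msr1 stood at 90.6 CPM (87.0 to 94.2) and 14.5 CPM (13.1 to 15.9), a log2 ratio of -2.65. None of the 3 pairs of intervals overlapped.

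Both carriers were also lower in coculture. Fabp4, better known from fat cells, had 25.8 CPM (23.9 to 27.7) without coculture and 3.75 CPM (3.08 to 4.52) with it. Its log2 ratio was -2.78, and -1.50 with cells weighted alike. Adipocyte markers were nearly absent beside Fabp4, with 3 of 6 detected and a summed level of 0.576 CPM without coculture. Fabp5, the form widely expressed in leukocytes and skin, had 893 CPM (882 to 904) and 284 CPM (278 to 290), a log2 ratio of -1.66. That ratio was -0.85 with cells weighted alike, which is inside 2-fold. A Fabp5 UMI was seen in 44.8% of cells without coculture and 36.7% with it, a smaller gap than in the level.

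Storage and efflux were mixed. Plin2 had 242 CPM (236 to 247) without coculture and 159 CPM (155 to 164) with it, a log2 ratio of -0.60. Abcg1, which passes cholesterol to high-density lipoprotein, had 240.0 CPM (234 to 246) and 26.2 CPM (24.4 to 28.1), a log2 ratio of -3.20. Abca1, the transporter to lipid-poor apolipoprotein A-I, went the other way, with 19.1 CPM (17.5 to 20.8) and 29.2 CPM (27.3 to 31.2), a log2 ratio of 0.61. With cells weighted alike its log2 ratio was 1.49. The 2 cholesterol transporters thus differed in opposite directions between the libraries. Apoe had 370.2 CPM (363 to 377) and 264 CPM (258 to 270), a log2 ratio of -0.49 that turned to 0.84 with cells weighted alike. An Apoe UMI was seen in 27.8% of cells without and 30.7% with coculture, an order that turned among cells thinned to 5000 UMIs. Thinning leaves out cells below the target, here 692 without and 1311 with coculture, so depth and the set of cells changed together. Pparg, the regulator, was sparse, at 10.4 CPM (9.20 to 11.6) and 4.33 CPM (3.61 to 5.16), a log2 ratio of -1.26 on 288 and 126 UMIs.

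**Figure D1:**
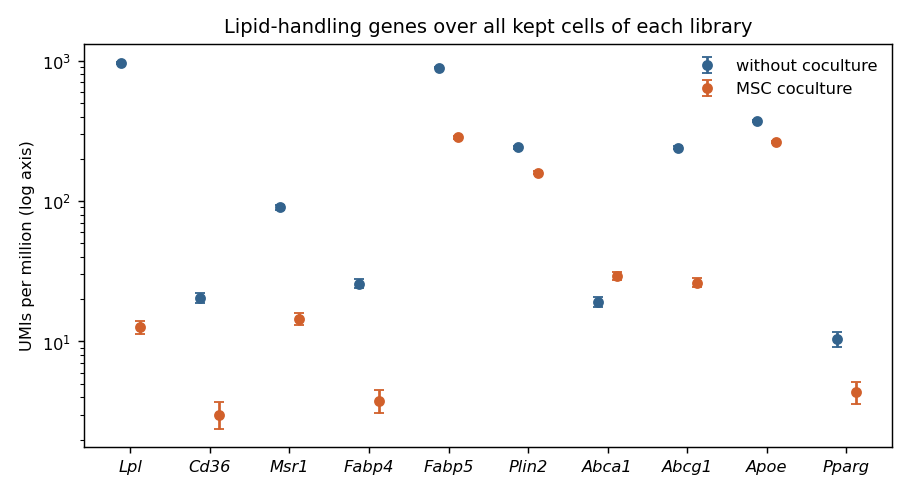
Level of each of the 10 genes over all kept cells of the library without coculture (blue) and the MSC coculture library (orange) (CPM, log axis), with 95% Poisson intervals for counting error. Lpl shows the widest gap (962 against 12.6 CPM) and Abca1 alone is higher in coculture (29.2 against 19.1 CPM).

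The other genes of the pathway came from a list of 63 genes in 6 roles, chosen with earlier results of these data known. Of the 49 that reached 10 CPM, 4 were at least 2-fold higher in coculture (12.7% of all genes measured were) and 17 at least 2-fold lower (11.7% of all genes were), with a median log2 ratio of -0.62. The counts per role are small and are given as a description. Uptake had 2 higher and 3 lower of 10 measured, storage 2 higher and 1 lower of 6, and carriers and activation 0 higher and 1 lower of 5. The very low density lipoprotein receptor gene Vldlr had 0.936 CPM without and 30.9 CPM with coculture (log2 ratio 5.05), while the endocytic receptor gene Lrp1, which also binds apolipoprotein E, went from 273 to 32.9 CPM (-3.05). Of the fatty acid-activating enzymes, Acsl1 went from 34.9 to 14.0 CPM (-1.32) and Acsl3 from 9.93 to 15.6 CPM (0.66).

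Storage genes split. Hilpda, whose product sits on lipid droplets and inhibits triglyceride breakdown, went from 11.2 to 96.4 CPM (log2 ratio 3.11). Dgat1, the last step of triglyceride synthesis, went from 47.5 to 154 CPM (1.69). It and Cpt1a below were named after their values were seen. Soat1, which esterifies cholesterol, went from 225 to 58.1 CPM (-1.96). Breakdown genes had 0 higher and 3 lower of 11 measured: lysosomal acid lipase (Lipa) went from 162 to 23.9 CPM (-2.76), the neutral cholesterol ester hydrolase Nceh1 from 74.1 to 20.8 CPM (-1.83), and the carnitine palmitoyltransferase Cpt1a from 29.2 to 14.0 CPM (-1.06). In efflux and transport, 5 of 7 were lower and 0 higher, led by the oxysterol-making enzymes Ch25h (16.3 to 0.584 CPM, -4.81) and Cyp27a1 (10.8 to 1.38 CPM, -2.97). Regulators had 4 of 10 lower and 0 higher, with Klf4 going from 127 to 6.29 CPM (-4.33) and Rxra, the partner of PPARγ and LXR, from 28.0 to 4.37 CPM (-2.68).

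The cell classes that held each gene differed between the libraries. Without coculture the macrophage-like cluster 0 had 65.3% of all UMIs but 99.7% of Fabp4 UMIs, 97.0% of Msr1, 95.5% of Fabp5, 92.4% of Cd36 and 91.5% of Abca1. It held 89.6% of Apoe, 79.1% of Abcg1, 74.3% of Lpl, 69.4% of Plin2 and 64.2% of Pparg. All 13 markers of the macrophage list were detected in this cluster at a summed 5197 CPM, but neutrophil markers summed to 13769 CPM there, and the part of free RNA in that was not tested. In coculture, where that cluster had no cell, neutrophil-like cells with 15.4% of all UMIs held 84.1% of Pparg, 74.8% of Abca1, 61.3% of Msr1 and 53.1% of Plin2. Mature dendritic cell-like cells, with 6.86% of UMIs, held 71.6% of Fabp4, 55.2% of Cd36 and 37.6% of Fabp5. B lineage-like cells, with 11.8% of UMIs, held 44.9% of Apoe. Unnamed cluster 1, with 5.83% of UMIs, held 35.4% of Msr1, 34.3% of Lpl and 20.5% of Apoe. Eosinophil-like cells, with 28.3% of UMIs, held 30% of Fabp5, 16.8% of Abcg1 and 14.8% of Plin2. In coculture, then, different classes held the largest part of different genes.

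**Figure D2:**
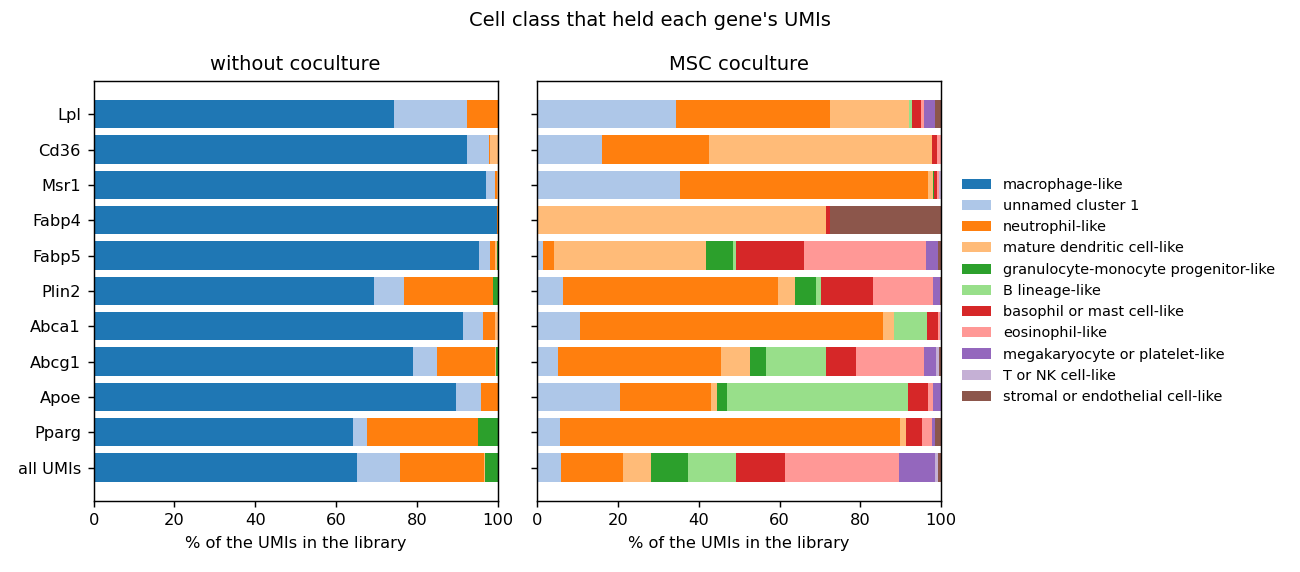
Share of each gene's UMIs, and of all UMIs (bottom bar), that lay in each cell class of the library without coculture (left) and of the coculture library (right), in percent. The macrophage-like class (dark blue) holds most of every gene on the left and, at the clustering resolution used, has no cell on the right, where neutrophil-like, mature dendritic cell-like and B lineage-like cells hold the largest parts of several genes.

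Lpl was high in 4 clusters of the library without coculture. Its level was 1655 CPM (1609 to 1702) in unnamed cluster 1, 1094 CPM (1079 to 1110) in macrophage-like cluster 0 and 993 CPM (934 to 1056) in neutrophil-like cluster 3. It was 288 CPM (270.1 to 307) in neutrophil-like cluster 4 and 14.6 CPM (8.92 to 22.6) in cluster 6, which is led by the granule genes Ltf, Camp and Ngp. No 2 neighbours in this order overlapped. The progenitor-like cells of that library, with a median of 27395 UMIs per cell, had 1 Lpl UMI in 30 cells (1.19 CPM, 0.03 to 6.61). The part of free RNA in the Lpl levels was not tested.

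Cluster 3 (298 cells without coculture) carried Lpl with few of the other uptake genes. An Lpl UMI was seen in 51.0% of its cells, and in 46.8% (40.8 to 52.8) after thinning to 2000 UMIs, which left out 20 cells. Its Fabp5 level was 17.2 CPM against 1306 CPM in cluster 0, Msr1 had 1 UMI, and Cd36 and Fabp4 had 0. Macrophage markers summed to 503 CPM there, against 5197 CPM in cluster 0. This cluster took its name from leading genes such as Slfn1 and Csf3r, with 4 neutrophil markers raised at least 2-fold. S100a8, a mainstay of neutrophils, was only 5242 CPM in it against 64939 CPM in cluster 4, and the whole neutrophil list summed to 13548 CPM, close to the 13769 CPM of macrophage-like cluster 0, so the name rests on few markers.

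In coculture Lpl reached 10 CPM in 3 of 14 cluster sums: 74.2 CPM (61.8 to 88.4) in unnamed cluster 1, 36.1 CPM (28.2 to 45.4) in mature dendritic cell-like cluster 7 and 32.9 CPM (27.6 to 38.8) in neutrophil-like cluster 2. The last 2 did not differ beyond counting error. Each coculture sum lay below the lowest of clusters 0, 1, 3 and 4 without coculture.

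Cd36 and Fabp4 had the narrowest distributions. Cd36 was 28.8 CPM (26.4 to 31.3) in macrophage-like cluster 0 and 24.0 CPM (17.7 to 31.9) in coculture mature dendritic cell-like cluster 7, with overlapping intervals. It was 10.6 and 8.25 CPM in cluster 1 without and with coculture and 5.40 CPM in coculture cluster 2, and 12 of the 20 sums held 0 UMIs. Within cluster 0 the tenth of cells with most Cd36 held 74.7% of its UMIs. Fabp4 was 39.3 CPM (36.5 to 42.3) in cluster 0 and 39.1 CPM (30.9 to 48.8) in cluster 7, and at most 0.676 CPM in every other sum. The likeness of the 2 levels hides a different spread over cells. A Fabp4 UMI was seen in 26.9% of cells of cluster 0 but in only 12 of 292 cells of cluster 7, 1 of which held 27 of the 78 UMIs. Of the 109 Fabp4 UMIs in coculture, a further 27.5% lay in 9 stromal or endothelial-like cells.

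Fabp5 was broader. It was highest in coculture mature dendritic cell-like cluster 7, at 1554 CPM (1500 to 1610) with a UMI in 89.4% of cells, followed by macrophage-like cluster 0, at 1306 CPM (1290 to 1323) with a UMI in 97.6%. Basophil or mast cell-like cells had 401 CPM in cluster 12 and 393 CPM in cluster 13 and eosinophil-like cluster 14 had 362 CPM, a run of neighbours whose intervals met. The gene was lowest in T or NK cell-like cluster 8, with 0 UMIs in 97 cells, and in B lineage-like cluster 11, at 3.64 CPM. The other lymphoid clusters, 9 and 10, had 28.1 and 54.8 CPM, and the level of coculture neutrophil-like cluster 2 lay between these.

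**Figure D3:**
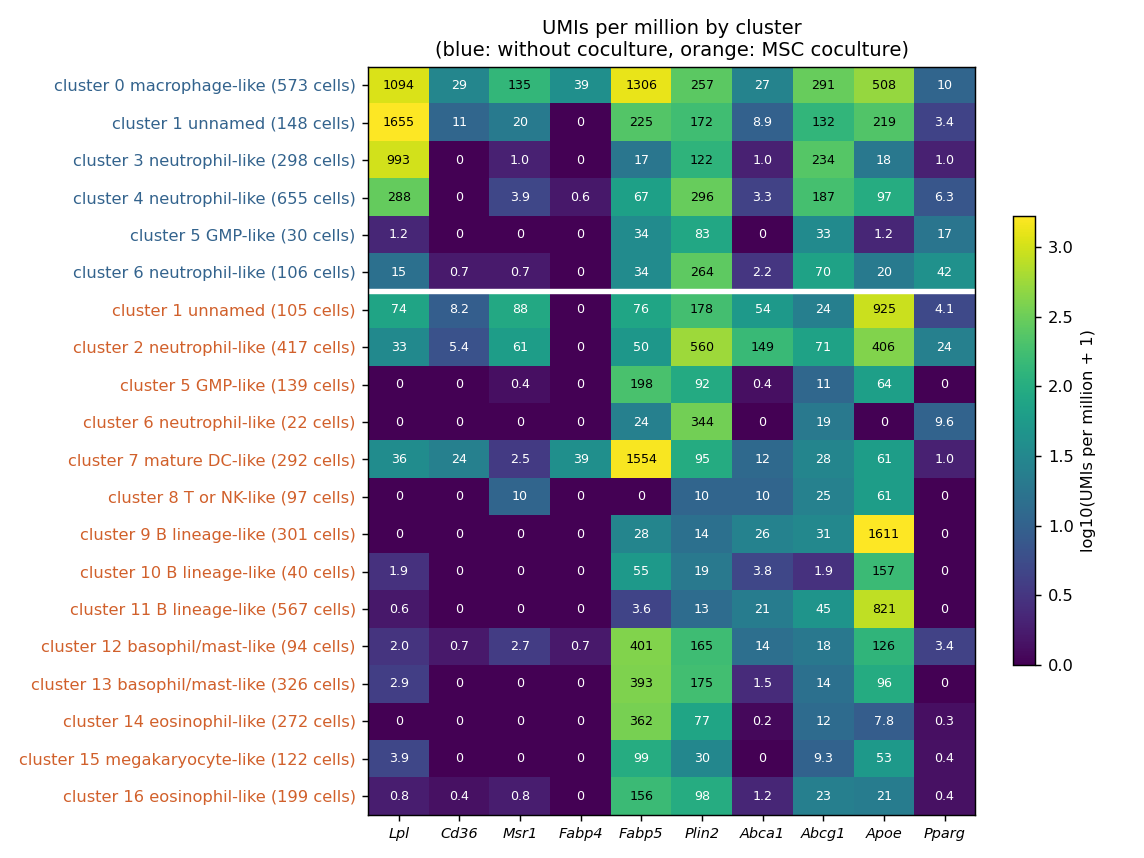
CPM of each gene (columns) in each cluster with at least 20 cells (rows), without coculture above the white line and in MSC coculture below it, coloured by log10(CPM + 1) and printed in each cell of the grid. Lpl is high in 4 rows above the line and at most 74 CPM below it, Abca1 and Plin2 peak in coculture cluster 2, and Apoe peaks in B lineage-like clusters 9 and 11 and in cluster 1.

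Plin2 was detected in every cluster sum, from 10.1 CPM in T or NK cell-like cluster 8 to 560 CPM (538 to 583) in coculture neutrophil-like cluster 2. The next levels were 344 CPM in coculture cluster 6, 296 CPM in cluster 4 and 264 CPM in cluster 6 without coculture, all neutrophil-like and with intervals that met in turn. Macrophage-like cluster 0 had 257 CPM (249 to 264), which met the interval of cluster 6 without coculture. Neutrophil-like cluster 3 was lower, at 122 CPM (101 to 145). A Plin2 UMI was seen in 89.0% of the cells of cluster 2, and in 65.5% (60.5 to 70.2) after thinning to 2000 UMIs, against 41.3% (37.2 to 45.5) in cluster 4 and 38.3% (34.3 to 42.4) in cluster 0.

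Abcg1 was higher in most sums without coculture, though the libraries overlapped. Its 6 sums without coculture ran from 33.2 CPM in progenitor-like cluster 5 to 291 CPM (283 to 299) in cluster 0, with 234 CPM in cluster 3, 187 CPM in cluster 4 and 132 CPM in cluster 1. Its 14 coculture sums ran from 1.89 to 70.9 CPM (63.1 to 79.3), the highest again in neutrophil-like cluster 2. That highest coculture level equalled cluster 6 without coculture (70.1 CPM, 56.8 to 85.6) within counting error and lay below the other 4 clusters of at least 100 cells of that library, but above progenitor-like cluster 5. Coculture B lineage-like cluster 11 followed with 44.9 CPM, whose interval met that of cluster 5.

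Abca1 peaked in coculture neutrophil-like cluster 2, at 149 CPM (138 to 161) with a UMI in 41.5% of cells. Unnamed cluster 1 in coculture followed with 53.6 CPM (43.2 to 65.8), then cluster 0 with 26.7 CPM (24.4 to 29.2). From there on neighbouring levels met within counting error, beginning with the B lineage-like clusters 9 (25.7 CPM) and 11 (21.2 CPM). Neutrophil-like clusters 3 and 4 without coculture had 0.958 and 3.30 CPM, on 1 and 11 UMIs. After thinning to 2000 UMIs, a UMI was seen in 20.2% (16.3 to 24.5) of cells of cluster 2 and in 4.41% (2.87 to 6.44) of cluster 0.

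Promoter sequence from RefSeq (GRCm38.p6) was at hand for 5 of the 10 genes: Cd36, Plin2, Abca1, Apoe and Pparg. The 250 bases before an annotated start are printed for Abca1 and Plin2, which were both highest in coculture cluster 2, and for Cd36, which was not. The Abca1 and Plin2 windows adjoin the upper end of the gene spans given above. The Cd36 window lies inside its gene span, before an internal start. All 3 genes lie on the minus strand, and the sequence is given 5′ to 3′ as transcribed. Capitals mark matches, on either strand, to the nuclear receptor half-site AGGTCA, to the direct repeats AGGNCANAGGNCA (spacing 1, as PPARγ–RXR binds) and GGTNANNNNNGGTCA (spacing 4, as LXR–RXR binds), and to the E-box CACGTG.
Abca1 (chr4:53159896-53160145): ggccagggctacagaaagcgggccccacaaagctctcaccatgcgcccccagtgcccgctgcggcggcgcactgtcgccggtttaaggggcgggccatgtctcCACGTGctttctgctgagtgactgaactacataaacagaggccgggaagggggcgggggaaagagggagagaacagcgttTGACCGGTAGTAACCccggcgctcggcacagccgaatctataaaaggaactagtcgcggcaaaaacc
Plin2 (chr4:86670060-86670309): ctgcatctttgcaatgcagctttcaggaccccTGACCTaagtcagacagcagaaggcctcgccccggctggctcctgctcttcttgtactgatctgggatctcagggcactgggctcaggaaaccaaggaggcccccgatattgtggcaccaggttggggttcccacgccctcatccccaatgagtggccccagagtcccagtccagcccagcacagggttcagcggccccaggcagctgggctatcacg
Cd36 (chr5:17835897-17836146): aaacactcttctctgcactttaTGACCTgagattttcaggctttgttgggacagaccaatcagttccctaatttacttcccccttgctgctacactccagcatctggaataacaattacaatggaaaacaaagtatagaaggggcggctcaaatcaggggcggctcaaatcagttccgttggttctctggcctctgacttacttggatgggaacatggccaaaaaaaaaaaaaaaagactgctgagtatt
The Abca1 window held 1 spacing-4 repeat, 67 bases before the start on the reverse strand, and 1 E-box at 147 bases. The spacing-4 letters were written from the known LXR site of this promoter with its sequence in view, so the match is a description. The same pattern was found in 58 of 32851 promoter windows of equal length (0.177%), and the E-box in 6.02%. Plin2 and Cd36 each held 1 half-site on the reverse strand, at 218 and 228 bases, as did 14.0% of windows. Pparg had a half-site in 2 of its 3 windows and Apoe no match in its 3. The spacing-1 repeat, found in 0.338% of windows, was in none of these 9.

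Apoe was highest in coculture B lineage-like cluster 9. B lineage-like clusters 9 and 11 of the coculture library had 1611 CPM (1541 to 1683) and 821 CPM (778 to 866), and unnamed cluster 1 in coculture had 925 CPM (879.9 to 972). Of the 105 coculture cells in cluster 1, 92 were named macrophage-like at the finer clustering resolution, so its level is not one outside macrophage-like cells. Macrophage-like cluster 0 had 508 CPM (498 to 519) and coculture cluster 2 had 406 CPM (387 to 425), and no 2 neighbours in this order overlapped. An Apoe UMI was seen in 48.5% of cells of cluster 9 and 50.6% of cluster 11. As a background in the same library, the share was 2.06% in T or NK cell-like cluster 8 and 13.6% in eosinophil-like cluster 14, at medians of 1910 and 22313 UMIs per cell. After thinning to 2000 UMIs the shares were 43.5% (37.4 to 49.9) in cluster 9, 44.6% (40.1 to 49.1) in cluster 11, 4.76% in cluster 8 and 1.87% in cluster 14. Cells under 2000 UMIs were left out of these shares, 46 in cluster 9, 78 in cluster 11, 55 of 97 in cluster 8 and 4 in cluster 14, so the shares before and after are not of the same cells.

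The Apoe in B lineage-like cells was uneven. In cluster 9, 54 of 301 cells held at least 10 Apoe UMIs, and these had 87.5% of the cluster's Apoe. At the finer clustering resolution of 1.2, a group of 38 coculture B lineage-like cells led by Jchain and Igkc had 9580 CPM of Apoe, with a UMI in every cell. That group held 19.0% of all coculture Apoe UMIs in 1.26% of its cells. Macrophage markers in cluster 9 summed to 136 CPM with 5 of 13 detected, and nearly all of it came from Wfdc17 (93 UMIs, 74.7 CPM) and Adgre1 (72 UMIs, 57.8 CPM). C1qb and C1qc had 2 and 1 UMIs, and C1qa, Mrc1, Mertk, Csf1r, Gpnmb, Fcgr1 and Trem2 were among those at 0. The part of these markers in the Apoe level was not tested. Lpl, Cd36, Msr1, Fabp4 and Pparg had 0 UMIs in cluster 9.

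Pparg was highest in 2 neutrophil-like clusters. It was 41.6 CPM (31.5 to 53.9) in the granule-rich cluster 6 without coculture, 24.4 CPM (19.9 to 29.6) in coculture cluster 2 and 16.6 CPM (9.08 to 27.9) in progenitor-like cluster 5 without coculture. The last 2 of these did not differ beyond counting error. Cluster 0 followed with 10.2 CPM (8.78 to 11.8), meeting the interval of its upper neighbour. In cluster 6 a Pparg UMI was seen in 32.1% of 106 cells, and in clusters 3 and 4 in 0.336% and 3.21%. Of the 14 coculture sums, 1 reached 10 CPM and 6 held 0 UMIs.

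Neutrophil-like cells were the named class with at least 20 cells in both libraries that let the genes be compared at larger numbers, 1060 cells without coculture and 442 in coculture. Different clusters held them: 3, 4 and 6 without coculture and almost only 2 in coculture. Of 8 genes measured, 4 were at least 2-fold higher in coculture, where 10.4% of 7629 genes were, and 2 at least 2-fold lower, where 7.62% were. Cd36 and Fabp4 did not reach 10 CPM. Abca1 had 2.60 CPM (1.46 to 4.29) without and 142 CPM (131 to 153) with coculture, a log2 ratio of 5.77 (5.04 to 6.61). Msr1 had 2.60 CPM (1.46 to 4.29) and 57.7 CPM (50.8 to 65.2), a log2 ratio of 4.47 (3.72 to 5.33). Each rested on 15 UMIs in the library without coculture.

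Within the class Apoe had 73.6 CPM (66.8 to 81.0) without and 386 CPM (368 to 405) with coculture, a log2 ratio of 2.39. Plin2 went from 256 CPM (244 to 270) to 549 CPM (528 to 572), a log2 ratio of 1.10 that was 0.83 at the coarser clustering resolution of 0.4. Lpl went from 351 CPM (336 to 366) to 31.3 CPM (26.3 to 36.9), a log2 ratio of -3.49, and Abcg1 from 168 CPM (157 to 179) to 68.4 CPM (61.0 to 76.5), a log2 ratio of -1.30. Fabp5 stayed near 50 CPM in both (50.2 and 48.7 CPM, log2 ratio -0.04, -0.30 to 0.22), and Pparg had 13.7 and 23.7 CPM (0.79). Abca1 and Abcg1 again differed in opposite directions, and Msr1, Plin2, Apoe and Pparg had the opposite sign here from the sum over all cells.

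Of the neutrophil-like clusters, number 6 alone had 20 or more cells on both sides, 106 without and 22 with coculture, and its values did not all follow the class. Pparg was lower in coculture there, from 41.6 CPM on 57 UMIs to 9.57 CPM on 2 UMIs, a log2 ratio of -2.12 (-5.20 to -0.20). Apoe had 28 UMIs without and 0 with coculture. Its log2 ratio was -0.51 with 3 UMIs in place of 0, and the upper limit of its counting interval was -0.12. Abca1 had 3 and 0 UMIs and Msr1 1 and 0, too few for a ratio. Plin2 was 264 and 344 CPM (0.38, -0.00372 to 0.75) and Abcg1 70.1 and 19.1 CPM (-1.87, -3.78 to -0.47). The class ratios thus mostly compare clusters 3, 4 and 6 of one library with cluster 2 of the other.

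Macrophage markers were also higher in coculture cluster 2, where all 13 were detected at a summed 972 CPM. Without coculture they summed to 503 CPM in cluster 3 with 13 detected, 296 CPM in cluster 4 with 12 and 86.9 CPM in cluster 6 with 10. Within that library Lpl and Abcg1 followed this order, and Abca1 and Apoe did not. In clusters 3, 4 and 6 Lpl was 993, 288 and 14.6 CPM and Abcg1 234, 187 and 70.1 CPM. Abca1 in the same clusters was 0.958, 3.30 and 2.19 CPM, on few UMIs, and Apoe 18.2, 97.5 and 20.4 CPM. The part of macrophage-type cells in these values was not tested. In cluster 2, 369 of 417 cells had no UMI of C1qa, C1qb or C1qc. Abca1 in these was 124 CPM (112 to 137), Msr1 46.7 CPM (39.5 to 54.9), Plin2 589 CPM (562 to 616) and Apoe 215 CPM (199 to 231). Without all such C1q-positive cells in either library, a setting chosen after seeing the data, the class ratios were 5.45 for Abca1, 4.25 for Msr1, 1.17 for Plin2 and 1.43 for Apoe. Apoe alone left its counting interval. In the 26 cells with at least 3 C1q UMIs it was 1171 CPM, and they held 53.0% of the cluster's Apoe and 18.4% of all its UMIs. These 26 cells were deeper, with a median of 26404.5 UMIs per cell against 6903 in the 369 cells. A cell with few UMIs can lack C1q UMIs for that reason, and the part of depth was not tested.

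Cluster 2 was led by Arg1, an arginase used as a marker of suppressive myeloid cells, and the genes divided unevenly by it. The 261 cells with at least 5 Arg1 UMIs had 78.1% of all the cluster's UMIs and held 93.7% of the cluster's Abca1 UMIs, 94.6% of Msr1 and 93.0% of Apoe, but 80.0% of Plin2 and 78.5% of Abcg1. Abca1 was 21.2 CPM (10.9 to 37.0) in the 88 cells with no Arg1 UMI, 76.4 CPM (50.8 to 110.5) in the 68 cells with 1 to 4, and 179 CPM (165 to 194) in the 261 cells above. Plin2 was 480.0, 562 and 573 CPM in the same 3 sets. Apoe (189, 38.2 and 483 CPM) and Msr1 (17.6, 10.9 and 73.3 CPM) were highest in the last set. Between the first 2 sets Apoe went against the order. Msr1 rested on 10 and 4 UMIs in those 2 sets (8.46 to 32.5 and 2.98 to 28.0 CPM), which did not differ beyond counting error. The sets also differed in depth, with medians of 4740, 4507 and 9198 UMIs per cell, and the part of depth in the difference was not tested.

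**Figure D4:**
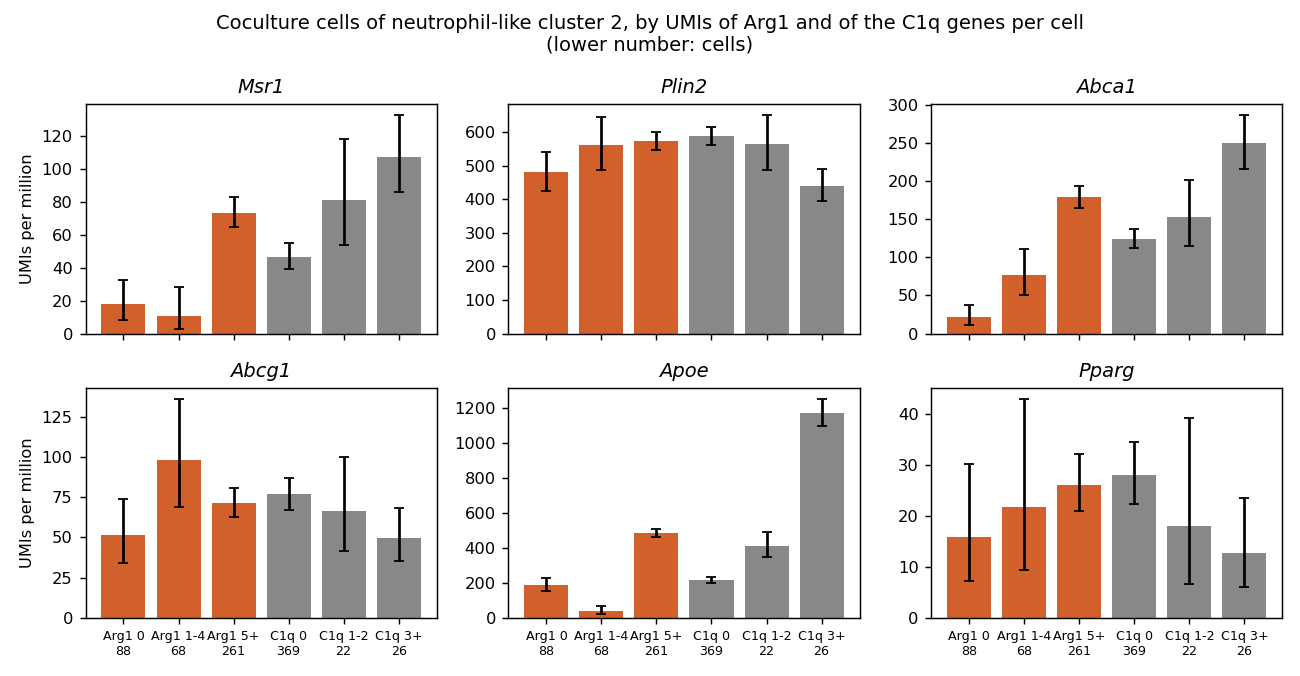
CPM of 6 genes in the 417 coculture cells of neutrophil-like cluster 2, divided by their Arg1 UMIs (orange bars) and, separately, by their summed C1qa, C1qb and C1qc UMIs (grey bars), with 95% Poisson intervals and the number of cells under each bar. Abca1 is 21.2 CPM in the lowest and 179 CPM in the highest Arg1 set, while Plin2 lies between 480.0 and 573 CPM.

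Unnamed cluster 1 had 148 cells without coculture and 105 in coculture, and was led by Igha, Asgr2 and C1qa. Of 8 genes measured in it, 3 were at least 2-fold higher in coculture, where 12.4% of 8174 genes were, and 3 at least 2-fold lower, where 8.78% were. Msr1 went from 19.5 to 87.8 CPM (log2 ratio 2.17), Abca1 from 8.90 to 53.6 CPM (2.59) and Apoe from 219 to 925 CPM (2.08). Lpl went from 1655 to 74.2 CPM (-4.48), Fabp5 from 225 to 76.0 CPM (-1.56) and Abcg1 from 132 to 23.6 CPM (-2.49). The 2 libraries filled this cluster with unlike cells. Macrophage markers summed to 1503 CPM without and 5417 CPM with coculture, and at resolution 1.2 it came apart into 140 cells without and 12 with coculture (in an unnamed cluster) and 8 without and 92 with coculture (macrophage-like, led by C1qa and Ccl24), with 1 coculture cell elsewhere. Those 92 cells had 76.2 CPM of Lpl and 973 CPM of Apoe, against 1094 and 508 CPM in macrophage-like cluster 0 of the library without coculture.

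Granulocyte-monocyte progenitor-like cells, 30 without and 139 with coculture, had 5 of the genes at a measurable level. Of these, 2 were at least 2-fold higher in coculture, where 19% of 7709 genes were, and 2 at least 2-fold lower, where 6.47% were. Fabp5 went from 34.4 CPM (23.0 to 49.4) to 198 CPM (182 to 215), a log2 ratio of 2.52 (1.99 to 3.12). Abcg1 went from 33.2 to 11.0 CPM (-1.60), and Plin2 was 83.0 and 91.6 CPM (0.14). Apoe rested on 1 UMI without coculture and 176 with it, a log2 ratio of 5.76 (3.27 to 11.1) that was 3.40 over all deposited barcodes, so its size is poorly fixed. Pparg had 14 UMIs without and 0 with coculture. Its log2 ratio was -3.92 with 3 UMIs in place of 0, and the upper limit of its counting interval was -3.42. Neutrophil markers in these cells summed to 129250 CPM without and 15964 CPM with coculture, and their part in the differences was not tested.

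**Figure D5:**
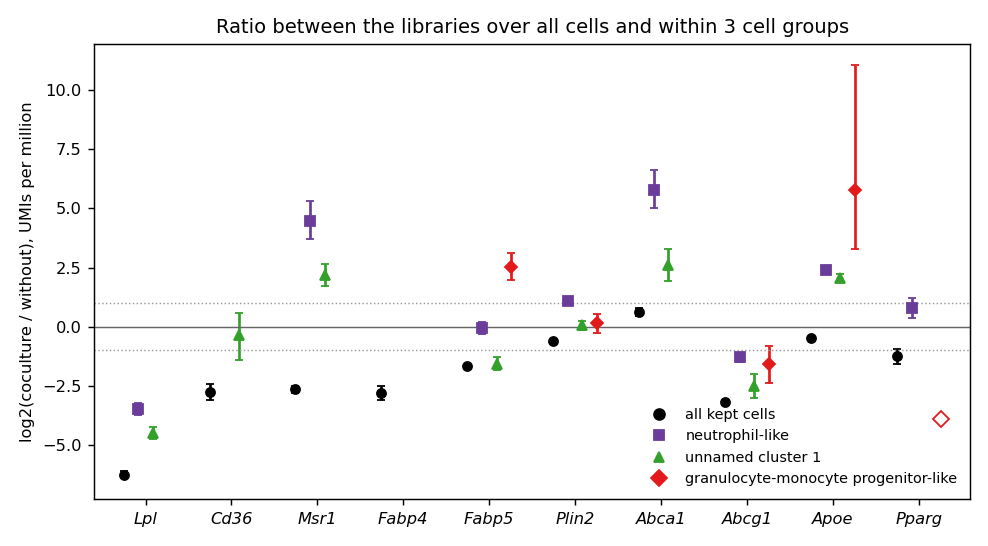
log2 ratio of CPM, coculture over without, for each gene over all kept cells (black circles), neutrophil-like cells (purple squares), unnamed cluster 1 (green triangles) and granulocyte-monocyte progenitor-like cells (red diamonds), with 95% counting intervals. Dotted lines mark 2-fold, an open symbol is a ratio with 3 UMIs in place of 0, and genes under 10 CPM in a group are left out. Lpl and Abcg1 lie below 0 in every group shown, while Msr1 and Apoe lie below 0 over all cells and above it within the groups.

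Of the other pathway genes in the neutrophil-like class, 6 of 43 measured were at least 2-fold higher in coculture and 4 lower, with a median log2 ratio of 0.37. Among all genes measured in the class 10.4% were higher and 7.62% lower, so the list lay near the background. Hilpda went from 11.5 to 389 CPM (log2 ratio 5.09) and Dgat1 from 109 to 390 CPM (1.84). Angptl4, an inhibitor of lipoprotein lipase, went from 3.12 to 23.0 CPM (2.88). Among the 4 lower genes were Lipa, at 42.0 CPM in coculture (-1.25), and Lipe, hormone-sensitive lipase, from 26.2 to 12.5 CPM (-1.07). These examples were chosen after their values were seen. In unnamed cluster 1, 4 of 42 were higher and 5 lower (median -0.04), and in the progenitor-like cells 11 of 41 were higher and 3 lower (median 0.28). All genes gave 12.4% higher and 8.78% lower in cluster 1, and 19% and 6.47% in the progenitor-like cells. Hilpda and Dgat1 were at least 2-fold higher in coculture in all 3 groups.

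Likeness of pattern was measured as Pearson's r of log2(CPM + 5) over the 20 cluster sums, among 9528 genes, and is given as a description, since the sums share libraries and clusters. Abcg1 was the set's own nearest gene to Lpl (r = 0.83), and over all genes Gnpda1 (0.96), Ccl2 (0.95) and Clec7a (0.94) were nearest. Cd36 was nearest to Sulf2 (0.97), Pld2 (0.97) and Nrp2 (0.95), and within the set to Fabp4 (0.82). Msr1 was nearest to Ms4a6d (0.97), C1qb (0.94) and Slc7a2 (0.93), and Fabp4 to Fxyd2 (0.98), Gprc5c (0.88) and Serpinb6a (0.85). Fabp5 was nearest to Osbpl3 (0.87), Slc33a1 (0.85) and Etv6 (0.83). Plin2 was nearest to Grina (0.94), Itgam (0.93) and Dmxl2 (0.93), and Pparg to Abca13 (0.90), Samd5 (0.89) and Cd177 (0.89).

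Abca1 had weaker neighbours, Slc25a15 (0.86), March1 (0.84) and Kcnk13 (0.81), as did Apoe, with Unc119b (0.85), Arhgap17 (0.81) and Myo1e (0.80). Abcg1 was nearest to BC005537 (0.92), Rnf13 (0.91) and Rgl1 (0.91). Within the set Abca1 was nearest to Apoe (0.78) and Msr1 (0.74), and its r with Abcg1 was 0.26.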

How the data were processed

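Whole-number UMI counts per gene and barcode, deposited by the authors as filtered matrices, were used. Per the submitters' processing notes, Cell Ranger and bcl2fastq were run with mm10, and the file header gives software version 3.1.0. Per the labels' protocols, 3′ libraries (v2 chemistry) were made from sorted cells over 70% viable. The deposited gene and barcode names are other, non-numeric columns.

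Of 47729 gene identifiers, 47310 matched GENCODE M21. Barcodes were kept from 500 genes upward when mitochondrial UMIs did not exceed 10%, no doublet caller was run and no doublets were removed. Counts were summed per library, class or cluster and given as CPM with exact Poisson intervals, ratios with exact conditional binomial intervals and shares with Clopper-Pearson intervals (95%). Intervals cover counting error only. A gene was measured at 10 CPM in either group and called at 2-fold, with 0 counts replaced by a floor of 3 UMIs. Clusters (scanpy 1.11.5, 2000 variable genes, 30 components, 15 neighbours, Leiden resolution 0.8) left out the 10 genes and the pathway list, and were named from 16 marker lists by at least 3 markers raised 2-fold. Named beside the 10 genes were, per pathway role, the 2 genes of largest ratio at 10 CPM and, per gene, the 3 nearest by r. Ratios were tested on simulated data. Scaling with TMM used edgeR 4.0.16. The genes, lists, marker rule and comparisons were chosen with earlier results of these data known. Values of some list genes are not reported here.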

Additional observations from a re-analysis of the deposited data

Results flagged for a closer look

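Fabp5 differed in opposite directions in 2 cell groups compared between the same libraries. In granulocyte-monocyte progenitor-like cells its log2 ratio (coculture over without) was 2.52, from 34.4 to 198 CPM. In unnamed cluster 1 it was -1.56, from 225 to 76.0 CPM. With 1 library per group the difference between the 2 ratios was not tested. The progenitor-like value without coculture rests on 29 UMIs in 30 cells, and cluster 1 comes apart by library at the finer clustering resolution.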

How the results depend on the processing

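No paired analysis was possible because each group is 1 library. Of 138 recomputed counts of genes past 2-fold, 128 stayed within 1.5 times the reported count. The exceptions follow, and for each the cause was not tested unless fewer genes were measured. With the mean of each cell's CPM over all kept cells, 1 of the genes described was higher and 4 lower (Cd36 and Pparg fell under the minimum level), and 2 of the pathway list were higher. At a minimum of 50 CPM, which leaves 3465 genes, 403 of all genes were higher and 513 lower, 4 of the genes described were lower, and 2 of the pathway list were higher and 10 lower. At a minimum of 10 UMIs over both libraries, which admits 16315 genes, 3824 were higher and 1898 lower. The difference in the share of cells with a UMI, coculture minus without, turned from -6.65 to 3.07 percentage points for Abca1 after thinning to 2000 UMIs and to 0.618 at 5000 UMIs, and from 2.87 to -9.88 for Apoe at 5000 UMIs. Cells below each target were left out, so these shares come from fewer cells. Of 162 recomputed log2 ratios, 132 stayed inside the counting interval of the reported ratio, and none of those past 2-fold turned its sign. The neutrophil-like ratio of Pparg, 0.79, was 1.01 over all deposited barcodes, Apoe in the progenitor-like cells, 5.76, was 3.40 over the same barcodes, and Cd36 in unnamed cluster 1, -0.36, was -1.28 with the stricter cell filter. Unnamed cluster 1 has no value under other clusterings. Pparg rests on 288 and 126 UMIs, Cd36 on 565 and 87 and Fabp4 on 716 and 109, and counting intervals do not cover variation between cultures, animals or sorts, of which each group has 1 library.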
